A study of Homo sapiens and Mus musculus with 213 samples.

Results

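Glycolysis converts glucose to pyruvate and lactate, and a large share of its enzymes and transporters are switched on by the hypoxia-inducible factors. The 40 genes described here are the glycolytic enzymes and their regulators together with the genes of the hypoxia response. They were chosen by name, and all 40 were found by matching the Ensembl identifiers of the RNA-seq values to GENCODE symbols, among 58336 listed genes. By role they comprise 17 glycolytic enzymes, 4 glucose and lactate transporters, 4 kinases that set the flux into and out of glycolysis, 11 genes induced in hypoxia, and 4 genes of the hypoxia-inducible factor (HIF) itself with its ubiquitin ligase subunit VHL. RNA was measured in 3 HEK293T lines, with 3 libraries per line. HEK293T cells are an immortalized human embryonic kidney line, and the MYC WT cells are unedited. In MYC MUT cells, point mutations in the guanines of the MYC promoter abolish its G-quadruplex (G4), a 4-stranded DNA fold. In SWP cells, the MYC G4 sequence was exchanged by CRISPR for a different G4-forming sequence. The edited lines are homozygous clones, and the sources used here do not give the clone from which each library was made. All lines were grown in the same medium under standard culture conditions, with no hypoxic treatment.

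In glycolysis, hexokinase phosphorylates glucose, phosphofructokinase and aldolase commit and split the sugar, and the lower enzymes from GAPDH to pyruvate kinase harvest ATP. Lactate dehydrogenase then regenerates NAD+ by reducing pyruvate to lactate. A HIF complex pairs an oxygen-labile alpha subunit (HIF1A or EPAS1) with ARNT. When oxygen is present, prolyl hydroxylases of the EGLN family mark the alpha subunit and VHL directs it to degradation, so that HIF activity is set at the level of protein. HIF binds DNA at ACGTG within hypoxia response elements, and MYC binds the E-box CACGTG, which contains the same letters. MYC is itself known as an activator of many glycolytic genes, among them LDHA, HK2, ENO1 and SLC2A1.

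The values are read counts per gene that the authors divided by 1 size factor per library. The libraries held 65024354 to 98497026 counted reads each. MYC, the edited gene, had 20020, 28396 and 21580 normalized reads in MYC WT, 10693, 11176 and 12400 in MYC MUT and 14480, 24743 and 25245 in SWP. MYC MUT lay below every other library, while SWP overlapped MYC WT. On the log2 scale MYC fell by 1.02 in MYC MUT against MYC WT (SE 0.19, limma adjusted p = 0.0018), and the SWP difference was -0.15 (95% confidence interval -0.57 to 0.28). The headers of the 3 MYC WT libraries name a sequencing pool that the headers of the edited lines do not name. Whether the edited lines were sequenced in another pool is not given in the sources used here. Any difference of pool and the editing cannot be told apart in a comparison with MYC WT. In the comparison of MYC MUT with SWP the fold change is taken between the edited lines, and the MYC WT libraries enter its p-value through the spread estimated over all 9 libraries. All 6 markers listed for HEK293T cells were present in every library, from 148.9 normalized reads for PAX2 to 63784 for VIM, with sums of 76435 to 87891 in MYC WT, 79455 to 90851 in MYC MUT and 64875 to 74965 in SWP. In MYC MUT against MYC WT, 4 of the 6 were called, KRT8, NEFL and PAX2 higher and NEFM lower, and in SWP KRT8 and NEFL were called lower. Of 8 markers of other cell types, PTPRC, PECAM1, CDH5, ALB and HBB had at most 8 reads in any library and were not tested, HBB being at 0 throughout. The 3 tested ones were all called in MYC MUT, COL1A1 (725.2 to 1951 normalized reads over all libraries) and CD14 (8.98 to 32.1) higher and COL3A1 (29.8 to 130.2) lower, and COL3A1 was called lower in SWP. The sums of these 8 markers were 1162 to 1356 in MYC WT, 1944 to 2034 in MYC MUT and 783.6 to 1176 in SWP, and their part in the changes of the members was not tested.

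**Figure D1:**
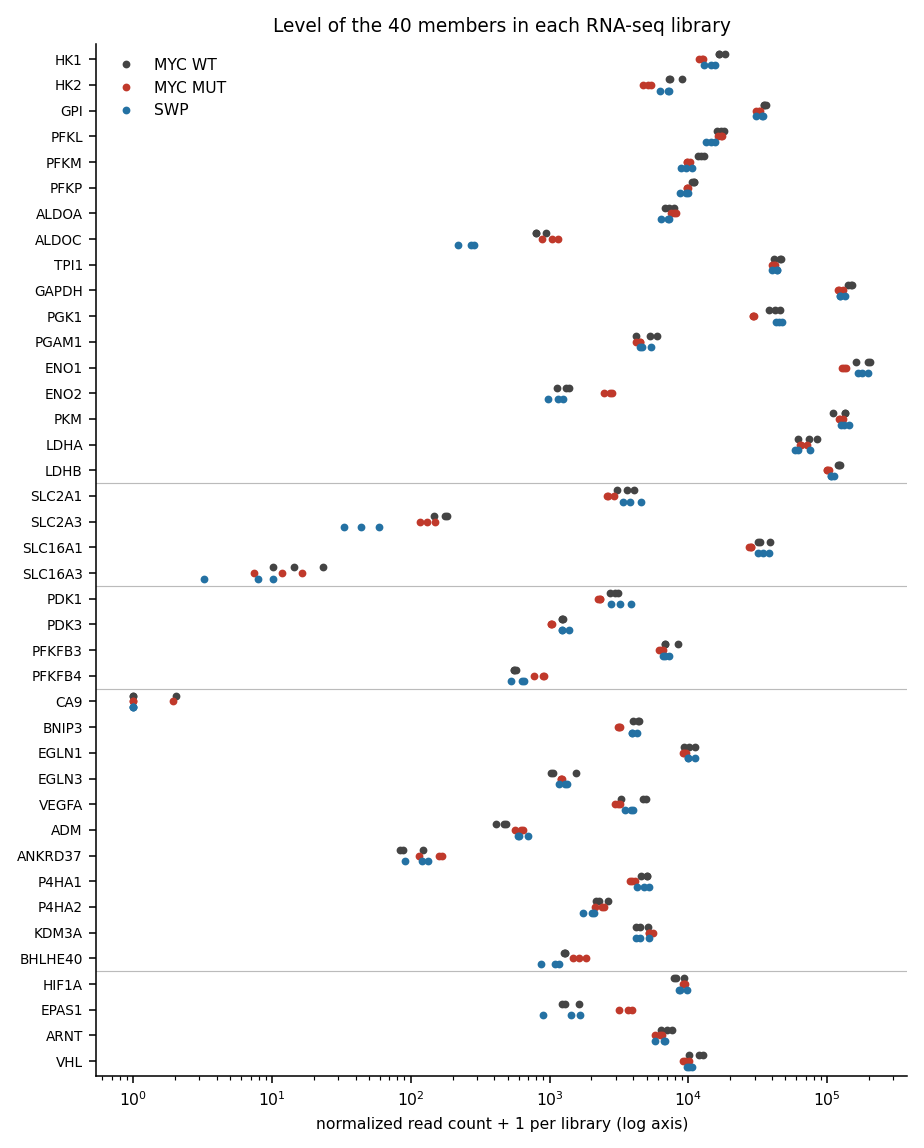
Normalized read count plus 1 of each of the 40 members in each of the 9 libraries, on a log axis, with members grouped by role between grey lines. ALDOC and SLC2A3 were lowest in SWP, and ENO2 and EPAS1 were highest in MYC MUT.

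Nearly all of the pathway was expressed. The 40 members together took 1.26% of the counted reads in MYC WT (SD 0.057), 1.12% in MYC MUT (SD 0.0017) and 1.23% in SWP (SD 0.021). The 17 enzymes alone made up 1.11%, 0.984% and 1.08%. Scaled per kilobase of exon, GAPDH stood highest in MYC WT at 61494 normalized reads per kilobase, followed by LDHB at 40833, ENO1 at 36048 and TPI1 at 16512. The order after GAPDH depends on the exon length used, which counts every annotated exon of a gene. ENO1 has 5216 such bases and 1781 in its canonical transcript, and LDHB has 2983 and 1303. The transporter SLC16A1, which exports lactate, reached 5428 per kilobase, and the glucose transporter SLC2A1 540.0. At the other end were the lactate exporter SLC16A3 at 1.62 per kilobase and CA9, a carbonic anhydrase that is among the most strongly HIF-induced genes. CA9 had 1 read in MYC WT replicate 1, 1 read in MYC MUT replicate 1 and none in the other 7 libraries. CA9 was therefore not tested, since a mean of at least 10 normalized reads was required, and the other 39 members entered the test with 20884 genes in all. SLC16A3 passed that minimum narrowly, with 3 to 23 reads per library.

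Members were compared on log2(normalized count + 1) with limma, which fits all genes and all 9 libraries at once, and p-values were adjusted by the Benjamini-Hochberg method over all 20884 genes. A member was called when its adjusted p was under 0.05 and its log2 fold change was above 0.5 or below -0.5. In an exact two-sided permutation test of 3 libraries against 3 the smallest p is 0.1, and each member called below reached it, apart from ANKRD37. The libraries are separate samples of each line, and where they do not stem from separate cultures the p-values measure technical spread only.

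In MYC MUT against MYC WT, 6 of the 39 tested members (15.4%) were called, where 21.4% of all tested genes were. The members that rose were EPAS1, ENO2, PFKFB4 and ANKRD37, 4 members against 11.3% of all genes, and those that fell were HK2 and PGK1, 2 members against 10.1%. At any fold, 21 members (53.8%) had an adjusted p under 0.05, against 38.4% of all genes. Of these, 15 (38.5%) were lower and 6 (15.4%) were higher, against 19.8% and 18.6% of all genes. At a log2 threshold of 1, 2 members (5.13%) passed, against 7.89% of all genes. The median log2 fold change of the members was -0.18, and that of all tested genes 0.00. With all libraries rescaled to equal totals, 8 members were higher and 8 lower at an adjusted p under 0.05, and the share of all called genes that were higher went from 52.8% to 64.3%.

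In SWP against MYC WT, 2 members (5.13%) were called, ALDOC and SLC2A3. Across all genes 5.13% were called, 2.15% higher and 2.98% lower, and no member was called higher. At any fold, 4 members passed (10.3%, against 9.97% of all genes), the others being PFKM, at 79.4% of its MYC WT mean, and ADM, at 139%. Exons of PFKM overlap those of SENP1 on the opposite strand, with a mean of 4067 normalized reads. Whether reads were counted by strand is not given in the sources used here. The replicate numbers pair the libraries of SWP and MYC WT, and with the number as a block 11 members passed at any fold, against 20.2% of all genes, while the same 2 were called. The spread behind these p-values was estimated over all 9 libraries, those of MYC MUT included. With MYC MUT left out of the fit, 1096 of all genes passed at any fold and 810 were called, in place of 2083 and 1072. At a log2 threshold of 1, 2 members passed, against 2.42% of all genes. The split by direction depended on the scaling. With DESeq2 in place of limma, 607 of all genes were called higher and 569 lower, in place of 450 and 622, and 3 members were called. The 2 comparisons with MYC WT share its libraries, so the values of a member in both are not independent.

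The edited lines were also compared with each other. In MYC MUT against SWP, 9 members (23.1%) were called, where 20.6% of all genes were. ALDOC, SLC2A3, EPAS1, ENO2, BHLHE40 and PFKFB4 were higher in MYC MUT, 6 members against 12.3% of all genes, and PGK1, SLC2A1 and PDK1 were lower, 3 members against 8.31%. At any fold the count was 16 (41.0%, against 38.0% of all genes), with 7 higher and 9 lower, against 20.9% and 17.2% of all genes. At a log2 threshold of 1, 4 members (10.3%) passed, against 8.25% of all genes. With DESeq2 in place of limma, 2245 of all genes were called higher and 1996 lower, in place of 2573 and 1736. With the replicate block, 22 members passed at any fold in this comparison and 29 in MYC MUT against MYC WT, where 50.4% and 50.5% of all genes passed. In each of the 3 comparisons the share of members called at 0.5 thus lay close to, or under, that of all genes.

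**Figure D2:**
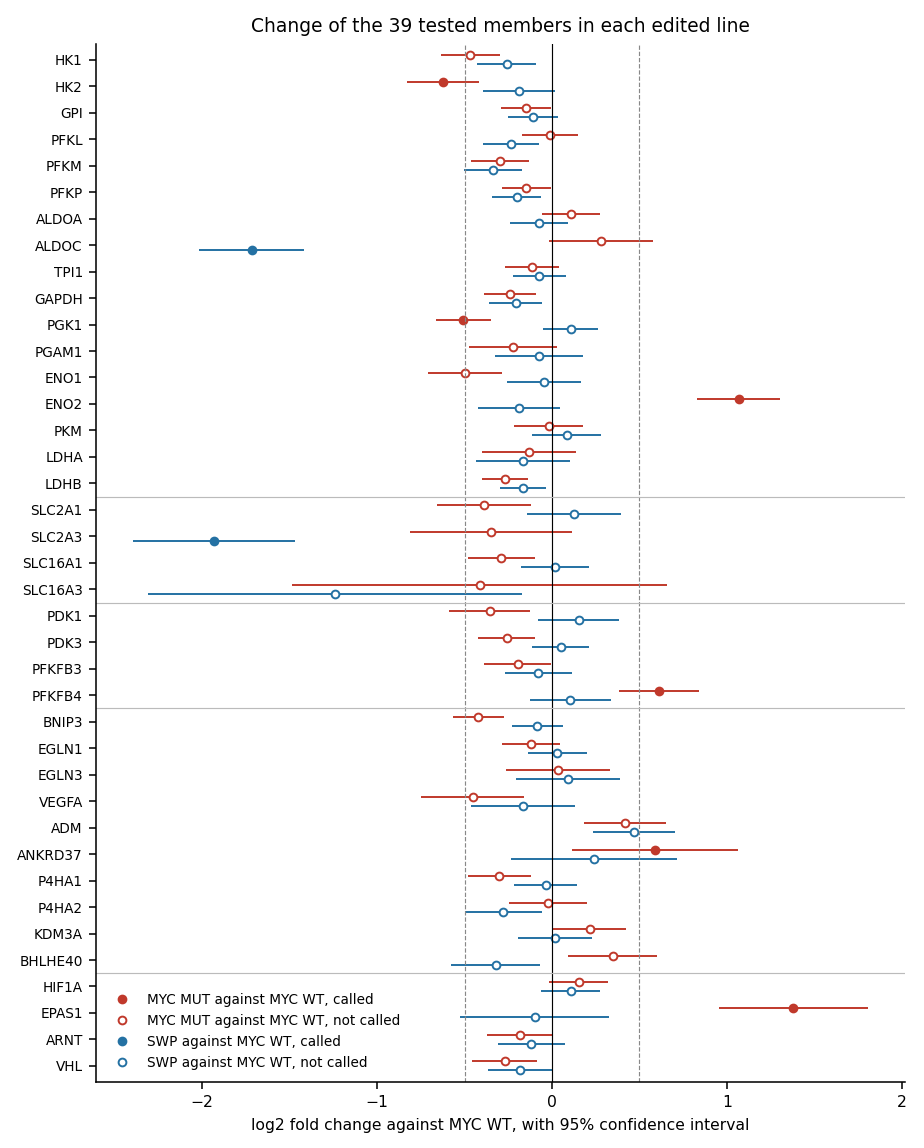
Log2 fold change of the 39 tested members in MYC MUT (red) and in SWP (blue) against MYC WT, with 95% confidence intervals of the limma fit. Filled points were called, and dashed lines mark a log2 fold change of 0.5. EPAS1 and ENO2 stood furthest to the right in MYC MUT, and ALDOC and SLC2A3 furthest to the left in SWP.

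Among the glycolytic enzymes, 3 of 17 (17.6%) were called in MYC MUT against MYC WT, where 21.4% of all tested genes were. HK2, the inducible hexokinase that binds mitochondria, had 8945, 7379 and 7310 normalized reads in MYC WT, 5141, 4749 and 5401 in MYC MUT and 7309, 6297 and 7103 in SWP. MYC MUT lay below all other libraries, and the highest SWP library lay just under the lowest of MYC WT. HK2 fell by 0.62 in MYC MUT (95% interval -0.83 to -0.42, limma adjusted p = 0.00039) and the SWP difference was -0.19 (95% interval -0.39 to 0.02). The constitutive hexokinase HK1 went from 16663 to 18330 in MYC WT to 11905 to 12803 in MYC MUT, and its fold change of -0.47 on the log2 scale (limma adjusted p = 0.00071) stayed short of 0.5.

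PGK1, the first ATP-forming enzyme of the pathway, had 42133, 38414 and 45418 normalized reads in MYC WT, 29376, 29692 and 29379 in MYC MUT and 45222, 47301 and 42870 in SWP. The MYC MUT libraries were the lowest and lay close together. PGK1 fell by 0.51 against MYC WT (SE 0.072, limma adjusted p = 0.00028) and by 0.61 against SWP (limma adjusted p = 7.1e-05). Against MYC WT it stood just inside the fold threshold, and its log2 fold change came under 0.5 in size without MYC WT replicate 3 (-0.45), with library totals made equal (-0.43), with upper quartiles made equal (-0.49), and with edgeR (-0.50). ENO1, the ubiquitous enolase, stood just outside it. ENO1 had 205041, 162342 and 196689 normalized reads in MYC WT, 131700, 128692 and 137575 in MYC MUT and 197466, 168084 and 178777 in SWP. Its log2 fold change in MYC MUT was -0.50 to 2 decimals (limma adjusted p = 0.0021), and it was called on leaving out MYC WT replicate 2 (-0.60) or, separately, MYC MUT replicate 3 (-0.52).

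ENO2, the neuronal enolase, ran against ENO1. It had 1322, 1380 and 1136 normalized reads in MYC WT, 2823, 2746 and 2460 in MYC MUT and 979.5, 1242 and 1151 in SWP. Every MYC MUT library was above every other library, and SWP overlapped MYC WT. The log2 rise of ENO2 in MYC MUT was 1.07 against MYC WT (95% interval 0.83 to 1.30, limma adjusted p = 2.8e-05) and 1.26 against SWP (limma adjusted p = 6.8e-06). The SWP difference from MYC WT was -0.19 (95% interval -0.42 to 0.05). ENO2 kept these calls under each of the 21 alternative settings.

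ALDOC, the brain form of aldolase, changed in the other edited line. It had 792.4, 798.1 and 944.4 normalized reads in MYC WT, 881.9, 1049 and 1155 in MYC MUT and 216.5, 268.9 and 286.0 in SWP. The SWP libraries lay far below the rest. ALDOC fell by 1.72 in SWP (95% interval -2.01 to -1.42, limma adjusted p = 1.6e-05), to 30.4% of the MYC WT mean, and was 2.00 higher in MYC MUT than in SWP (limma adjusted p = 1.2e-06). MYC MUT and MYC WT overlapped, with a difference of 0.28 (95% interval -0.02 to 0.58). ALDOA, the main aldolase, spanned 6373 to 8190 over all libraries.

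The other 13 enzymes, ENO1, HK1 and ALDOA included, were called in no comparison. In MYC MUT, GAPDH, LDHB and PFKM were lower at an adjusted p under 0.05 without reaching the fold threshold, at 84.7%, 82.9% and 81.3% of their MYC WT means. PKM, the last ATP-forming step, had 111244 to 135479 normalized reads in MYC WT, 121769 to 129317 in MYC MUT and 125921 to 144261 in SWP, and the ranges overlapped. LDHA, the lactate-forming subunit, had 61813 to 85077, 63564 to 71731 and 58381 to 75626, which also overlapped. Its log2 fold change in MYC MUT was -0.13 (95% interval -0.40 to 0.14). Processed pseudogenes carry copies of several of these messages. Reads counted on annotated pseudogenes made up 26.3% to 27.1% of the TPI1 sum, 17.2% to 18.8% of that of PGK1, 15.6% to 18.1% of that of HK2 and 15.7% to 16.8% of that of GAPDH. With these reads added, the log2 fold change of PGK1 in MYC MUT was -0.49, under the threshold, and the HK2 call remained.

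**Figure D3:**
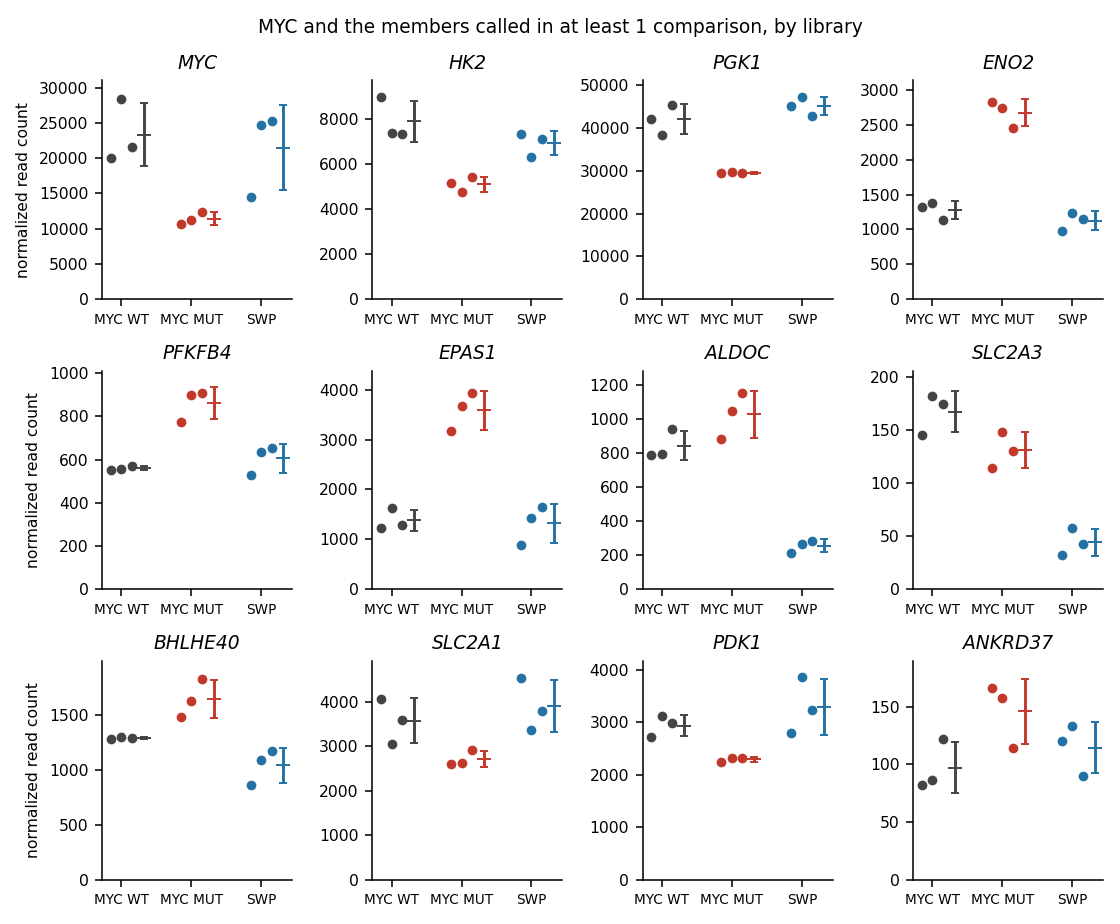
Normalized read count of MYC and of the 11 members called in at least 1 comparison, each point being 1 library in replicate order, with the mean and SD of 3 libraries to the right of the points, on axes that start at 0. MYC MUT stood apart for ENO2, EPAS1, HK2 and PGK1, and SWP stood apart for ALDOC and SLC2A3.

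The 4 transporters split by line. SLC2A1 (GLUT1), the basal glucose importer, had 4063, 3049 and 3602 normalized reads in MYC WT, 2604, 2630 and 2912 in MYC MUT and 4545, 3377 and 3798 in SWP. The MYC MUT libraries were the lowest. SLC2A1 differed between MYC MUT and SWP by -0.52 (limma adjusted p = 0.0064), and the difference from MYC WT was -0.39 (limma adjusted p = 0.027) and under the fold threshold. The call against SWP was lost with equal totals (-0.49), without MYC MUT replicate 1 (-0.49), without MYC MUT replicate 2 (-0.49) and without SWP replicate 1 (-0.40). SLC2A3 (GLUT3), the high-affinity importer of neurons, had 145.6, 181.8 and 175.2 normalized reads in MYC WT, 114.6, 148.7 and 130.5 in MYC MUT and 32.1, 57.9 and 42.7 in SWP. SWP was lowest, with no overlap. SLC2A3 fell by 1.93 in SWP against MYC WT (95% interval -2.39 to -1.47, limma adjusted p = 0.00019), to 26.4% of the MYC WT mean. The near-identical gene SLC2A14 had 0 to 6.47 normalized reads in all libraries. SLC16A1 in MYC MUT stood at 81.4% of the mean of MYC WT (limma adjusted p = 0.022), below the fold threshold, and at 101% in SWP. SLC16A3 had 9.23 to 22.1 normalized reads in MYC WT, 6.47 to 15.6 in MYC MUT and 2.23 to 9.17 in SWP, and depth limits what can be said of it. Its exons also overlap those of CSNK1D on the opposite strand, with a mean of 17988 normalized reads.

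The kinases that steer flux also moved in different directions. PFKFB4, a bifunctional enzyme that makes the phosphofructokinase activator fructose 2,6-bisphosphate, had 552.5, 557.9 and 570.9 normalized reads in MYC WT, 773.7, 896.3 and 907.9 in MYC MUT and 527.0, 635.9 and 651.6 in SWP. It rose by 0.61 in MYC MUT against MYC WT (95% interval 0.38 to 0.84, limma adjusted p = 0.00095), and every MYC MUT library lay above the rest. Against SWP the difference was 0.51 (limma adjusted p = 0.0030), which fell under the threshold without SWP replicate 1 (0.41), without MYC MUT replicate 2 (0.48), without MYC MUT replicate 3 (0.47), with edgeR (0.47) and with DESeq2 (0.47). Its relative PFKFB3 spanned 6171 to 8382 and was called in no comparison. PDK1, which shuts pyruvate dehydrogenase by phosphorylation and is a HIF target, had 2714, 3115 and 2978 normalized reads in MYC WT, 2238, 2316 and 2318 in MYC MUT and 2786, 3854 and 3226 in SWP. It was lower in MYC MUT than in SWP by 0.51 (limma adjusted p = 0.0031), a call lost with equal totals (-0.48), without MYC MUT replicate 1 (-0.49) and without SWP replicate 2 (-0.39). PDK3 had 1020 to 1048 normalized reads in MYC MUT, below the 1219 to 1249 of MYC WT, and was called in no comparison.

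The hypoxia-induced genes did not move together. Of the 10 tested in MYC MUT against MYC WT, 5 had a positive and 5 a negative log2 fold change, with a median of 0.01. ADM, BHLHE40 and ANKRD37 were higher and BNIP3, VEGFA and P4HA1 lower at an adjusted p under 0.05, and ANKRD37 alone passed the fold threshold. BNIP3, a mitophagy receptor, had 4445, 4000 and 4314 normalized reads in MYC WT, 3223, 3156 and 3135 in MYC MUT and 3904, 4234 and 3905 in SWP. It fell by 0.42 in MYC MUT (limma adjusted p = 0.00055), with MYC MUT below all other libraries, and 34.9% to 36.0% of the sum of its reads and those of its 44 pseudogenes lay on the latter. VEGFA, the angiogenic growth factor, had 3245, 4749 and 4930 in MYC WT, 2944, 3134 and 3205 in MYC MUT and 3494, 3881 and 3965 in SWP. It fell by 0.45 in MYC MUT (limma adjusted p = 0.021), and without MYC WT replicate 1, the lowest of its line, by 0.65, which is past the threshold.

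ADM, the vasodilator peptide adrenomedullin, had 469.5, 484.9 and 410.1 normalized reads in MYC WT, 619.3, 640.6 and 560.1 in MYC MUT and 697.7, 589.9 and 604.3 in SWP. Both edited lines lay above MYC WT, by 0.42 in MYC MUT (limma adjusted p = 0.0100) and 0.47 in SWP (limma adjusted p = 0.017). Here any difference of sequencing pool and the editing cannot be told apart. The SWP difference passed 0.5 without MYC WT replicate 2 (0.52), without SWP replicate 2 (0.52), with libraries rescaled to equal totals (0.52), with edgeR (0.52) and with DESeq2 (0.52). ANKRD37, a small ankyrin-repeat protein, had 82.0, 86.4 and 122.3 normalized reads in MYC WT, 166.4, 157.5 and 114.0 in MYC MUT and 120.3, 133.0 and 90.0 in SWP. The MYC WT and MYC MUT libraries overlapped, the exact permutation p was 0.2, and the adjusted p of the limma fit was 0.0497 for a log2 fold change of 0.59. That call was lost in 8 of 21 alternatives, among them those without MYC WT replicate 1 (0.48), MYC WT replicate 2 (0.52), MYC MUT replicate 1 (0.49), MYC MUT replicate 2 (0.53) and SWP replicate 2 (0.59). Exons of ANKRD37 overlap those of UFSP2 on the opposite strand, with a mean of 1445 normalized reads, and whether the authors counted by strand is not given in the sources used here.

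BHLHE40, a transcriptional repressor of the circadian and hypoxia responses, parted the edited lines. It had 1279, 1294 and 1291 normalized reads in MYC WT, 1481, 1623 and 1831 in MYC MUT and 860.4, 1088 and 1169 in SWP. The lines did not overlap, with MYC MUT highest and SWP lowest. BHLHE40 was 0.67 higher in MYC MUT than in SWP (95% interval 0.41 to 0.92, limma adjusted p = 0.0010), while its differences from MYC WT were 0.35 and -0.32 and not called. The prolyl hydroxylases were steadier. EGLN1 had 9171 to 11151 normalized reads over all libraries and EGLN3 had 1023 to 1539. The collagen prolyl hydroxylases P4HA1 and P4HA2 and the histone demethylase KDM3A were called in no comparison.

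EPAS1 showed the widest rise in MYC MUT of the 39 tested members. EPAS1 encodes HIF-2 alpha and lies at chr2:46293667-46386697 of hg38 on the plus strand. It had 1235, 1628 and 1287 normalized reads in MYC WT, 3162, 3673 and 3933 in MYC MUT and 895.9, 1424 and 1651 in SWP. The lowest MYC MUT library was well above the highest of the other lines, and SWP spanned the MYC WT range. EPAS1 rose by 1.38 in MYC MUT against MYC WT (95% interval 0.95 to 1.81, limma adjusted p = 0.00027), to 259% of the MYC WT mean, and by 1.48 against SWP (limma adjusted p = 0.00015). The SWP difference from MYC WT was -0.10 (95% interval -0.53 to 0.33), and SWP replicate 1 was lowest here as it was for MYC. The other HIF genes were not called. HIF1A had 7881 to 9240 normalized reads in MYC WT, 9145 to 9475 in MYC MUT and 8629 to 9815 in SWP, and its log2 fold change in MYC MUT was 0.15 (95% interval -0.02 to 0.32). ARNT spanned 5738 to 7572 over all libraries. VHL had 10168, 12718 and 12004 in MYC WT and 9138 to 10136 in MYC MUT (limma adjusted p = 0.027), under the fold threshold.

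Because related enzymes can replace each other, the share of each was taken within its family, from normalized reads per kilobase of exon. EPAS1 made up 10.5% of the HIF1A and EPAS1 sum in MYC WT (SD 1.9, n = 3), 21.3% in MYC MUT (SD 2.13) and 9.44% in SWP (SD 3.03). ENO2 made up 0.834% of the enolase sum in MYC WT (SD 0.17), 2.40% in MYC MUT (SD 0.236) and 0.757% in SWP (SD 0.147), so that ENO1 remained the main form in all lines. ALDOC held 14.5% of the aldolase sum in MYC WT (SD 0.645), 16.0% in MYC MUT (SD 1.73) and 5.16% in SWP (SD 0.835). SLC2A3 held 4.19% of the SLC2A1 and SLC2A3 sum in MYC WT (SD 0.999), 4.23% in MYC MUT (SD 0.585) and 1.07% in SWP (SD 0.453). The line named in each case, MYC MUT for the first pair and SWP for the second, did not overlap the other lines (exact permutation p = 0.1, the smallest possible).

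PFKFB4 rose from 7.20% of the PFKFB3 and PFKFB4 sum in MYC WT (SD 0.879) to 11.9% in MYC MUT (SD 1.18), with no overlap, and stood at 8.11% in SWP (SD 1.19). P4HA2 went from 12.9% of the P4HA1 and P4HA2 sum (SD 0.917) to 15.2% in MYC MUT (SD 0.672), without overlap. By contrast, HK2 held 34.7% of the hexokinase sum in MYC WT (SD 3.37), 32.2% in MYC MUT (SD 0.619) and 35.8% in SWP (SD 3.17), and MYC MUT overlapped MYC WT, HK1 and HK2 both being lower in MYC MUT. Among the phosphofructokinases, PFKM went from 33.8% (SD 0.32) to 30.4% in MYC MUT (SD 0.735) and PFKL from 38.2% (SD 0.982) to 41.8% (SD 0.606), neither overlapping. The normalized reads of PFKL and P4HA2 themselves did not rise in MYC MUT, at 99.2% and 98.3% of their MYC WT means. Those of PFKM and P4HA1 were at 81.3% and 81.1%. The levels of these shares depend on the exon length used, which counts every annotated exon of a gene.

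Copy number was not measured in these clones, and each member was set beside the genes around it. For each member, the log2 fold changes of all other tested genes starting within 10 Mb were summarised by their median. In MYC MUT against MYC WT this median was -0.05 around EPAS1 (119 genes), -0.02 around ENO2 (190 genes) and 0.03 around HK2 (131 genes). The median was 0.07 around PFKFB4 (266 genes) and -0.02 around BNIP3 (77 genes). It was -0.28 around PGK1 on chromosome X (108 genes), -0.35 around ENO1 and -0.33 around SLC2A1, both on chromosome 1, and -0.28 around HK1 on chromosome 10, the direction in which these members moved. Around MYC itself the median was -0.25 (69 genes). The part of the neighbourhood or of copy number in the change of MYC or of any member was not tested. In SWP against MYC WT the median was -0.21 around ALDOC (197 genes) and -0.08 around SLC2A3 (193 genes).

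**Figure D4:**
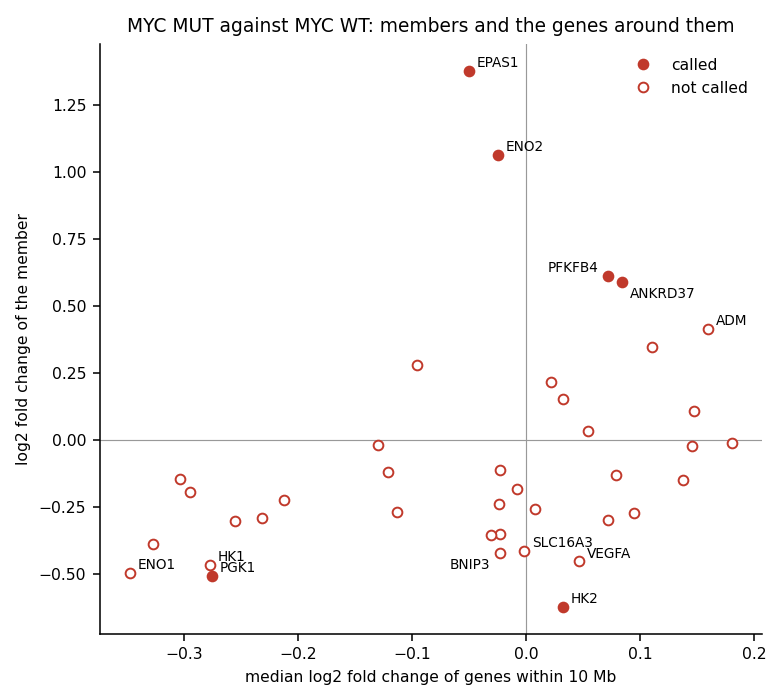
Log2 fold change of each tested member in MYC MUT against MYC WT, plotted against the median over all other tested genes starting within 10 Mb. EPAS1, ENO2 and HK2 stood far from 0 where the genes around them stood near 0, while PGK1, ENO1 and HK1 lay where the genes around them were also lower.

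Promoter sequences from RefSeq (GRCh38.p14) were matched by symbol for 36 of the 40 members, in 64 windows of 250 bases before to 50 after a transcription start. SLC2A3, SLC16A1, VHL and VEGFA were not matched. ACGTG on either strand was present in 39.1% of the member windows and in 21.4% of all 35116 windows, and CACGTG, each of which also contains ACGTG on both strands, in 14.1% and 7.26%. The 250 bases upstream of the start are shown for HK2, PGK1, ENO2, EPAS1 and ALDOC, which are among the called members. Not shown are the windows of the called members PFKFB4 and SLC2A1, without a match, and of BHLHE40, ANKRD37 and PDK1, with matches. The bases are in lower case, with each ACGTG or CACGTG match, in either direction, in capitals.
HK2, second listed start, chr2:74834920-74835169, plus strand: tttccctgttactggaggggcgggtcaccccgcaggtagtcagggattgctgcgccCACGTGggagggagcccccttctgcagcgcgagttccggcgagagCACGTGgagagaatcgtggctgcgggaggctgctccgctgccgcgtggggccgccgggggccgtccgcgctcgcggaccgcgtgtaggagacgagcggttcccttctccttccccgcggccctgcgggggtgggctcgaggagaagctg
PGK1, chrX:78103998-78104247, plus strand: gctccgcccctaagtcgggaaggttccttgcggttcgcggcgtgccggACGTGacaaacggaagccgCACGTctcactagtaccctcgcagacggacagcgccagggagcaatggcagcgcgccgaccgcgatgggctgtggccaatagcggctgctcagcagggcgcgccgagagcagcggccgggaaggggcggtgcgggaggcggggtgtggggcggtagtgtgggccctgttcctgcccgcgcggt
ENO2, chr12:6914330-6914579, plus strand: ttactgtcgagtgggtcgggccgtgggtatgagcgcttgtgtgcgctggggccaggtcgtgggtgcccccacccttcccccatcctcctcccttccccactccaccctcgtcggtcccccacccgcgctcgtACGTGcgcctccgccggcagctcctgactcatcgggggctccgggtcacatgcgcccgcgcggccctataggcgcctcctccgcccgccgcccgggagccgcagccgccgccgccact
EPAS1, chr2:46297157-46297406, plus strand: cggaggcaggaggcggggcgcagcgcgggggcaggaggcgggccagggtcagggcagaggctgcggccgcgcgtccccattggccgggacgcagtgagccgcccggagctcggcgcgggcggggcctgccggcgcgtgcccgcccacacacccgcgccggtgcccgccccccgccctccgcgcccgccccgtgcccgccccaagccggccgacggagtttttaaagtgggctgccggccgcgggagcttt
ALDOC, chr17:28576896-28577145, minus strand: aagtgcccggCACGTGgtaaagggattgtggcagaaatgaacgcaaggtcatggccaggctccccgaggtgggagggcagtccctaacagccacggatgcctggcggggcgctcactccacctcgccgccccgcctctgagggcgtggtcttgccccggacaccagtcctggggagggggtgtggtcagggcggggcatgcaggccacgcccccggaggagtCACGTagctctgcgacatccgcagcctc

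The stretch of HK2 shown, at its second listed start, holds 2 E-boxes. The window of its first listed start has 2 matches to ACGTG and no E-box. PGK1 has 2 matches to ACGTG that are no E-box, at -202 and -183 from the start, ENO2 has 1 such match at -118, and ALDOC has an E-box at its far end and a further ACGTG match at -28. EPAS1 has none in this window. Members that fell and members that rose thus both carry matches. LDHA, whose level overlapped between all lines, has 5 matches to ACGTG in its first window, 4 of which lie in E-boxes. A match is a description of the letters, and binding was not measured here.

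Other genes of the same pathways were taken from lists that were chosen with earlier results of these data known. Of 30 further glycolysis and pyruvate genes, 25 were tested, and 1 was called higher and 3 lower in MYC MUT against MYC WT, with none in SWP. Of 13 further HIF regulators, 12 were tested, with 1 higher and 1 lower in MYC MUT and none in SWP. Of 32 further hypoxia-induced genes, 27 were tested, and 2 (7.41%) were higher and 7 (25.9%) lower in MYC MUT, and 1 (3.70%) was lower in SWP. Of all tested genes, as given above, 11.3% were called higher and 10.1% lower in MYC MUT, and 2.98% lower in SWP. ARNT2, a partner of the HIF alpha subunits in neural cells, had 1206, 1304 and 1142 normalized reads in MYC WT, 3012, 2729 and 2948 in MYC MUT and 1353, 1417 and 1545 in SWP, with MYC MUT above all others. It rose by 1.25 against MYC WT (limma adjusted p = 1.8e-06). LOX, a collagen crosslinking enzyme, rose by 1.26 in MYC MUT (limma adjusted p = 8.8e-06).

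DDIT4, a hypoxia- and stress-induced inhibitor of mTORC1 signalling, had 10554, 29114 and 32809 normalized reads in MYC WT, 3583, 4918 and 6566 in MYC MUT and 12046, 36042 and 40587 in SWP. Replicate 1 was the lowest library of each line, and MYC MUT lay below all libraries of the others. DDIT4 fell by 2.15 in MYC MUT (95% interval -3.21 to -1.08, limma adjusted p = 0.0049), and the 158 genes around it had a median of -0.25. PCK2, the mitochondrial enzyme that makes phosphoenolpyruvate, fell by 1.65 (limma adjusted p = 0.026), with 4508 to 16406 normalized reads in MYC WT and 1994 to 4396 in MYC MUT, and replicate 1 again lowest in each line. The PCK2 call was lost on leaving out replicate 2 (limma adjusted p = 0.10) or replicate 3 (0.093) of MYC WT, on leaving out replicate 1 (0.10) or replicate 2 (0.056) of MYC MUT, and without the trend in limma (0.065). The 147 genes around PCK2 had a median of 0.04. PLIN2, a lipid droplet coat protein, fell by 1.23 in MYC MUT (limma adjusted p = 2.6e-06), and its neighbours had a median of -0.36. MPC1, a subunit of the mitochondrial pyruvate carrier, was 0.99 lower in MYC MUT than in SWP (limma adjusted p = 1.6e-06), and the 74 genes around it had a median of -0.68 in the same comparison. CA12, a membrane carbonic anhydrase related to CA9, had 1370, 1045 and 946.3 normalized reads in MYC WT, 675.6 to 726.7 in MYC MUT and 708.7 to 743.5 in SWP, so that both edited lines lay below MYC WT. It fell by 0.65 in MYC MUT (limma adjusted p = 0.0017) and by 0.61 in SWP (limma adjusted p = 0.0092). Without MYC WT replicate 1 these values were -0.49 and -0.45, under the threshold. It was the only listed gene outside the 40 members to be called in SWP, apart from markers of cell types.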

How the data were processed

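RNA-seq libraries of HEK293T MYC WT, MYC MUT and SWP cells (3 each) were used, and the other assays of the series were not analysed here. Per the labels and methods, the authors made strand-specific libraries from poly(A) RNA, aligned reads to hg38 with BWA, removed duplicates and counted reads on GENCODE genes. The counting tool and its use of strand are not given in the sources used here. The deposited values are a signal, namely counts divided by a DESeq2 size factor per library, and 100% of them gave whole reads (within 0.001) once multiplied by it. BWA does not join reads across introns, which lowers counts at exon junctions and can shift reads to processed pseudogenes.

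Members were tested with limma 3.58.1 under R 4.3.3 (lmFit, then eBayes allowing a mean-variance trend), on the scale of log2(normalized count + 1), which understates changes of low genes, with 9 libraries in one fit, genes with a mean of at least 10, and Benjamini-Hochberg adjustment. edgeR 4.0.16 and DESeq2 1.42.0 on the recovered reads were alternatives, beside other pseudocounts, filters, scalings, a replicate block and leaving out each library. Fits were tested on simulated data. Symbols and exon lengths come from GENCODE release 44, which matched 57754 of 58336 identifiers and is later than the release that the authors name. Library depth was 65024354 to 98497026 reads, and intervals for 3 libraries remain wide. Figures were drawn with matplotlib in Python.

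The members, the gene lists and the tests were chosen with earlier results of these data known. Named genes were all 40 members, MYC, and, from the other pathway lists, up to 5 called genes per comparison with the largest change, a mean of at least 50 and no overlap between groups. LDHA promoter matches were named after they were seen. Same-numbered libraries deviated together in SWP and MYC WT (correlation of deviations from the group means 0.555, 0.403 and 0.102) and in MYC MUT and SWP (0.333, 0.241 and 0.232). The replicate block took all 9 libraries by their number, so MYC MUT and MYC WT were also paired in it.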

Additional observations from a re-analysis of the deposited data

Results flagged for a closer look

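The 2 edited lines differed for 9 members by the direct test of MYC MUT against SWP, in which neither line shares its libraries with the other. Clone and edit cannot be told apart in this test. The log2 difference was 2.00 for ALDOC, 1.58 for SLC2A3, 1.48 for EPAS1, 1.26 for ENO2, 0.67 for BHLHE40 and 0.51 for PFKFB4, and -0.61 for PGK1, -0.52 for SLC2A1 and -0.51 for PDK1. ALDOC and SLC2A3 owed their place to SWP, which lay below MYC WT, and EPAS1, ENO2 and PFKFB4 to MYC MUT, which lay above MYC WT. Of all tested genes, 20.6% were called in that comparison, against 23.1% of the members.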

How the results depend on the processing

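Counts of members called stayed within 1.5 times the reported ones under all refits, at 5 to 7 in MYC MUT against MYC WT, 2 to 3 in SWP against MYC WT and 7 to 10 in MYC MUT against SWP. They depended on the fold threshold. With none, 21, 4 and 16 members passed (38.4%, 9.97% and 38.0% of all genes), and with a log2 threshold of 1, 2 members passed in MYC MUT against MYC WT and 4 in MYC MUT against SWP (7.89% and 8.25% of all genes). All 117 log2 fold changes of tested members were recomputed under up to 21 alternatives. In 57 of them the member passed at any fold, was called in at least 1 comparison, or was HIF1A, or LDHA in MYC MUT against MYC WT, and of these 46 kept direction and side of the threshold, 10 changed side and 1 changed sign. Of the other 60, none was called under any alternative and 19 changed sign, all with reported values of at most 0.091 in size. The sign change among the 57 was EPAS1 in SWP against MYC WT, at 0.02 without MYC WT replicate 2 and 0.16 without SWP replicate 1, with a range of -0.28 to 0.16 on leaving out each library. MYC in the same comparison was at 0.0034 and 0.12 without these libraries, with a range of -0.29 to 0.12. HK2 and ENO1 would be called lower in MYC MUT than in SWP without SWP replicate 2, both at -0.50, and SLC2A1 and PDK1 in that comparison were lost with libraries rescaled to equal totals (-0.49 and -0.48). The cause of these shifts was not tested.

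With the replicate block, the same 6, 2 and 9 members were called, and the calls over all genes were 4970, 1464 and 4773 in place of 4476, 1072 and 4309. At any fold the members passing were 29, 11 and 22 in place of 21, 4 and 16, and the shares of all genes 50.5%, 20.2% and 50.4% in place of 38.4%, 9.97% and 38.0%. The block covered all 9 libraries and so also paired MYC MUT with MYC WT. The correlations between these 2 lines were 0.328, 0.146 and 0.049 for replicates 1, 2 and 3, so the pairing is weak for replicate 3. With pseudogene reads added, the share of ALDOA rose by 7.70 percentage points in SWP in place of 9.29. With the length of the canonical transcript, chosen after the data were seen, the difference in share was 6.87 points for ALDOA in SWP against MYC WT, -8.08 for ALDOA in MYC MUT against SWP, -1.01 and -1.06 for ENO1 and -3.56 and -6.32 for P4HA1 in MYC MUT against MYC WT and against SWP, in place of -10.9, -1.57, -1.65, -2.33 and -4.07 in the last 5. Depth limits CA9 and SLC16A3, and 3 libraries per line limit all tests.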

Other observations

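The pentose phosphate genes, which branch from glycolysis at glucose 6-phosphate, had 7 tested members. Of these, 1 (14.3%) was called lower in MYC MUT against MYC WT, where 10.1% of all tested genes were, and none was called in SWP. The medians on the log2 scale were -0.21 and -0.09, and those of all tested genes -0.0034 and -0.055. PGD, the called gene, was named after its values were seen, and had a log2 fold change of -0.61 in MYC MUT. Replicate 1 was the lowest library of each of the 3 lines for DDIT4, PCK2, EPAS1, VEGFA and MYC, 5 genes picked after their values were seen.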
